A study of Mus musculus with 7 samples.

Results

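The probe sets described here are those that the array's annotation links to no gene. A probe set is a group of short probes read together as 1 value. They were found by taking every row of the deposited value table whose identifier has no gene symbol in the platform annotation, which gave 8314 of 33649 probe sets (24.7%). The other rows carried 1 symbol (23521) or several (1814). The annotation used here lists no other identifier for the 8314, so they are named by their identifier number alone, and no sequence or position could be given for them. A missing symbol leaves the target unnamed. It does not mean that the probes lie outside a gene.

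RNA was measured in C2C12 cells, an established line of mouse skeletal myoblasts, the dividing precursors of muscle fibres. Cells grown with 15% fetal bovine serum were transfected with a control siRNA (Control, 2 arrays), an siRNA against G9a (siG9a, 3 arrays) or an siRNA against GLP (siGLP, 2 arrays), at 0.2 µmol per 100 mm dish. The labels state no time after transfection, and no untransfected sample is described. Whether replicates came from separate cultures is not stated either, so each p-value reflects only array-to-array spread, which may be technical. With 2 or 3 arrays a group, precision is limited throughout.

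G9a (gene Ehmt2) and GLP (gene Ehmt1) form a complex that adds methyl groups to lysine 9 of histone H3, a mark of silent chromatin. This mark covers many stretches of the genome outside well-annotated genes. Whole transcript arrays carry probe sets for predicted transcripts, small RNAs, pseudogenes and the gene segments of antigen receptors besides protein-coding genes, and an annotation can leave any of these without a symbol. The comparisons ask whether transcripts read by these unnamed probe sets depend on G9a or on GLP.

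The targeted genes followed the labels. Ehmt2 had a log2 signal of 7.56 and 7.46 in Control, 6.31, 6.14 and 5.99 in siG9a, and 7.37 on both siGLP arrays. Ehmt1 read 6.71 and 6.73 in Control, 6.74, 6.60 and 6.53 in siG9a, and 5.73 and 6.13 in siGLP. Each gene was thus lowest in its own knockdown, without overlap with Control. Neither difference passed when all 33649 probe sets were tested (limma, Benjamini-Hochberg adjusted p = 0.0679 for Ehmt2 in siG9a and 0.260 for Ehmt1 in siGLP). The identity of the cells was checked against markers. All 7 myoblast markers read above 4.57, the 95th percentile of olfactory receptor genes, which serve here only as a reference of mostly low signal. Desmin (Des) and vimentin (Vim), the filament proteins, read 10.9 and 12.6. Of the myotube markers 3 of 4 did so (Myog, Ckm and Acta1). Among markers of other cell types, 1 of 3 for leukocytes (Cd68, 7.56), 0 of 3 for endothelium, 1 of 2 for adipocytes (Plin1, 4.85), 1 of 2 for neurons (Rbfox3, 5.12) and 0 of 1 for hepatocytes lay above it. The leukocyte markers Ptprc and Cd3e read 2.82 and 4.12. Cd68 stood at 7.06 and 7.22 in Control and between 7.54 and 7.83 on the 5 knockdown arrays, and its part in any result was not tested.

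Most of the unnamed probe sets gave low signal. Their median over 7 arrays was 3.68 on the log2 scale, against 4.98 for probe sets with 1 symbol. The middle 50% of them lay between 2.63 and 4.85, and the highest stood at 13.03. Of the 8314, 2475 (29.8%) lay above 4.56, the median of all probe sets, compared with 56.7% of those with 1 symbol. The 1091 olfactory receptor probe sets had a median of 2.64, and 2470 of the unnamed (29.7%) lay above the receptors' 95th percentile. At the 99th percentile, 5.62, the number was 1304 (15.7%). A signal above 10 was reached by 156 unnamed probe sets (1.88%) and by 3.66% of those with 1 symbol. Signal depends on how well each probe binds as well as on the amount of RNA, so these figures describe the distribution and do not rank transcripts.

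**Figure D1:**
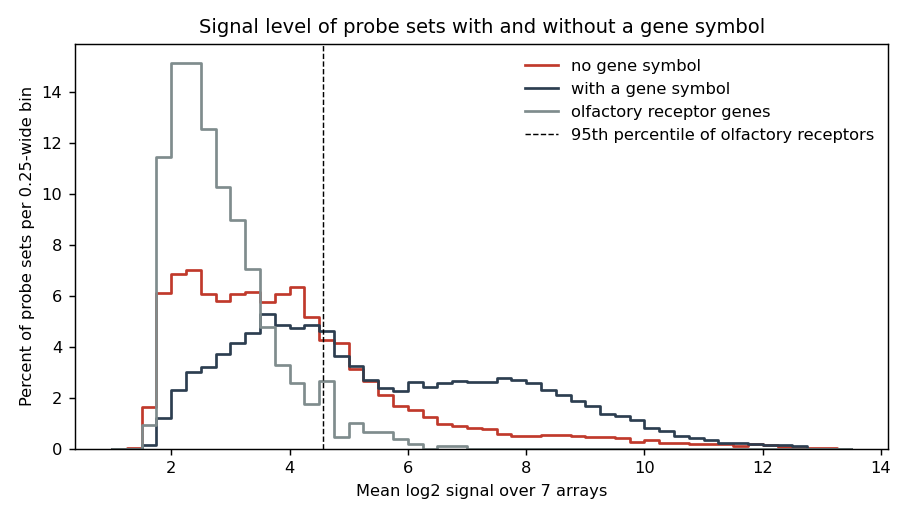
Distribution of mean log2 signal over the 7 arrays (x axis) as the percent of probe sets in each 0.25-wide bin (y axis), for the 8314 probe sets without a symbol, those with a symbol and the 1091 olfactory receptor probe sets. The unnamed set lies between the others, with 29.7% to the right of the dashed line at 4.57.

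The level hardly moved between arrays. The median of the unnamed probe sets was 3.69 on both Control arrays, 3.66 to 3.69 in siG9a and 3.67 to 3.69 in siGLP. These ranges touch, and normalization between arrays holds such medians close together, so a shift of the whole set could not be seen in these values.

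The identifier numbers carry some structure of their own. Identifiers rise through the table, and consecutive probe sets with 1 symbol lay on the same chromosome in 98.4% of 23327 pairs when matched to RefSeq genes of the mouse assembly GRCm38.p6, at a median distance of 80.3 kb. The symbols next to an unnamed probe set in this order are therefore given below as its neighbours. They name neither its target nor its position. The step from one identifier to the next also differed. It was 2 for 4386 of the unnamed (52.8%) and for 10.8% of those with a symbol, and it was 11 or more for 489 (5.88%) against 44.2%. No source used here says what the step counts.

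Signal was lowest at a step of 2 and highest at the largest steps, with no order between. The unnamed probe sets at a step of 2 had a median of 3.17, and 24.7% lay above the olfactory receptor level. Among the 489 at a step of 11 or more the median was 5.87 and 309 (63.2%) lay above it, against 71.2% of probe sets with a symbol at such steps. Between these ends the medians were 4.03, 3.87 and 3.95 at steps of 3, 4 to 5 and 6 to 10. Limited to a step of 2 on both sides, where the receptors' 95th percentile was 4.57 over 638 probe sets, 1081 of 4386 (24.6%) exceeded it, a comparison chosen after seeing the data.

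**Figure D2:**
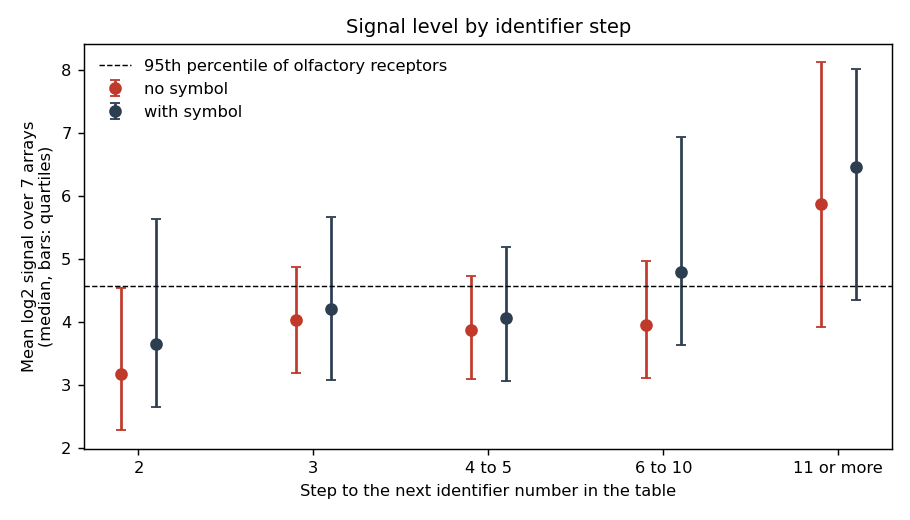
Mean log2 signal over 7 arrays (y axis; points are medians, bars the quartiles) by the step to the next identifier in the table (x axis), for probe sets without and with a symbol; the dashed line is the olfactory receptor level. Medians of the unnamed lie at 3.17 for a step of 2 and at 5.87 for a step of 11 or more.

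The brightest unnamed probe sets were steady across the groups. Probe set 17511316 read 13.04 and 12.99 in Control, 13.08, 13.10 and 12.92 in siG9a, and 13.07 and 13.03 in siGLP, and its neighbours were Zfp791 and Vps35. The next were 17532595 (12.8), 17264036 (12.6), 17316737 (12.5) and 17397502 (12.5). For all 5 the differences between groups lay within 0.11 log2, and none passed in any contrast (limma adjusted p of at least 0.620). The neighbours of 17532595 were Gm20783 and ND1, a gene of the mitochondrial genome. After their values were seen, 4 further probe sets beside mitochondrial symbols were picked out among the 60 brightest. Of these, 17532599 and 17532601 (12.3 and 11.8) preceded ND1, 17532647 (11.4) lay between CYTB and ND6, and 17532651 (12.2) followed ND6. The high level of these 4 follows from that choice, and other unnamed probe sets beside mitochondrial symbols are not described here. Mitochondrial genes encode respiratory chain subunits and the ribosomal and transfer RNAs of that organelle. Whether these probe sets read mitochondrial RNA was not tested.

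Unnamed probe sets came in runs. Without interruption by a symbol there were 5420 runs, 3787 of them of a single probe set, and 20 of at least 10, which held 336 probe sets. The longest, 36 in a row, lay between Ighm, the constant segment of the immunoglobulin M heavy chain, and Igh-VS107. It ranged from 1.89 to 8.30 with a median of 3.92, and 13 of the 36 exceeded the olfactory receptor level. Runs of 27 and 26 lay between variable segments of the T-cell receptor alpha chain (Trav symbols), with medians of 2.81 and 3.16 and 2 and 6 members above that level. A run of 23 lay between segments of the kappa light chain (Igkv symbols), with a median of 3.17 and 1 above it. Lymphocytes join such segments to build antibodies and T-cell receptors, and other cells keep them unjoined. Of all unnamed probe sets, 298 had an antigen receptor symbol on both sides, and their median was 3.12, with 55 (18.5%) above the olfactory receptor level. This grouping was made after the runs were seen.

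Other runs differed in level. All 16 in a run between Krtap4-6, a keratin-associated protein of hair, and Gm11595 lay above the olfactory receptor level, from 5.23 to 8.98 with a median of 6.63. The 10 between C230091D08Rik and Ipw, a non-coding RNA of an imprinted region, had a median of 1.89 and none above that level. A run of 28 between Lrch2 and Gm5946 had a median of 5.42, with 22 above it.

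Not every unnamed probe set was an independent reading. In 84 sets, holding 218 members (2.62%), the values were equal to every printed digit on all 7 arrays. The largest set had 16 members, with a mean of 4.16 and identifiers from 17546532 to 17547335. The next had 12, at 5.42, all inside the run between Lrch2 and Gm5946. None of the probe sets named for a difference belonged to such a set. Within a probe set, the same value occurred on 3 or more of the 7 arrays in 1677 (20.2%), against 21.5% of those with a symbol.

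The spread between arrays of a group was larger for the unnamed. Their median standard deviation within groups was 0.14 log2, against 0.11 for probe sets with a symbol. It was 0.13 against 0.092 among those above the median level of all probe sets and 0.14 against 0.12 among the rest. A range over 1 log2 across the 7 arrays was seen in 426 of the unnamed (5.12%) and in 1.88% of those with a symbol. The deposited values contain no detection call, and dim probe sets thus enter the counts below.

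Few unnamed probe sets differed far from Control after knockdown of G9a. The middle 50% of their differences from Control lay between -0.10 and 0.089 log2, with a median of -0.005, and the median over all probe sets was 0.002. Those that separated from Control were about as often higher as lower in the deposited values. After quantile normalization 790 were higher and 979 lower, and after cyclic loess 794 and 973. The shares of all probe sets under these normalizations are not given here, so this order is not read as particular to the unnamed. The largest separated shifts above the median level were just under 1 log2. None passed the test. In 760 every siG9a array lay above both Control arrays (9.14%), where 12.6% of all probe sets did so, and in 764 every siG9a array lay below (9.19%; 11% of all). Both shares were below the background, and a separation of this kind is not by itself a result. Only 2 of the separated shifts reached 1 log2, both lower (background 0.0178%), and no higher one did (background 0.0505%).

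Among unnamed probe sets whose higher group mean exceeded the median of all, 237 of 2571 separated upwards (9.22%) and 340 downwards (13.2%). In probe sets with a symbol the order was the other way, with 2578 higher and 2188 lower of 14598. Over both kinds, 16.4% of such probe sets separated upwards and 14.7% downwards. After quantile normalization the counts were 258 and 379 for the unnamed, and 2653 and 2472 for those with a symbol, so the order held in each. No test of this difference was made. Where the higher group mean was at or below the median of all, 9.11% of the unnamed separated upwards and 7.38% downwards. For probe sets with a symbol at such levels the shares were 8.27% and 7.06%, so the lower shares of the unnamed were not seen there.

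The largest upward difference was at probe set 17214719, beside the potassium channel subunit gene Kcne4. It read 5.06 and 5.16 in Control and 5.85, 6.23 and 6.23 in siG9a, and both siGLP arrays read 5.89. All 5 knockdown arrays lay above both controls. The difference in siG9a was 0.99 log2 (SE 0.13; 1.99-fold) and did not pass (limma adjusted p = 0.13). With probe sets below the median level left out it passed (limma adjusted p = 0.0489), the only 1 of 15 alternative settings in which it did. Probe set 17290072, between the ribosome rescue gene Pelo and Rpl34-ps2, read 4.04 and 4.25 in Control and 4.84, 4.91 and 4.86 in siG9a. Its difference was 0.72 (SE 0.085, limma adjusted p = 0.119). Like 17214719, it passed only without the dim probe sets, 1 of 15 alternative settings (limma adjusted p = 0.04). The other largest upward differences were 17247638 (0.81), 17300127 (0.65) and 17414796 (0.63), with limma adjusted p from 0.222 to 0.379.

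The clearest downward difference was at probe set 17494435, whose neighbours Usp17le and Usp17lb belong to a family of deubiquitinating enzymes. It read 7.44 and 7.56 in Control, 6.57, 6.65 and 6.77 in siG9a, and 7.39 and 7.56 in siGLP. The siG9a arrays stood apart below all others, while the siGLP arrays overlapped Control. The difference in siG9a was -0.84 (SE 0.093; 1.79-fold lower) and had the smallest p of any unnamed probe set in this comparison (limma adjusted p = 0.106). It passed without probe sets below the median level (limma adjusted p = 0.035) and with a trended, robust variance model (0.0403). These were 2 of 15 alternative settings, and it passed in no other. The neighbour Usp17le differed by 0.42 and Usp17lb by 0.03, neither past the threshold. Whether probe set 17494435 reads a member of this family was not tested, since no sequence was available for it.

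Other downward differences had wider spread. Probe set 17241635 read 5.27 and 4.58 in Control and 3.62 to 4.29 in siG9a, a difference of -0.96 (limma adjusted p = 0.354). Its 2 Control arrays differed from each other by more than the gap between the groups. Probe set 17430004 differed by -0.91, 17270607 by -0.83 and 17468483 by -0.78 (limma adjusted p = 0.171, 0.687 and 0.394). Among dim probe sets, those whose higher group mean was at or below the median of all, the largest separated shifts were 17546745 (-1.36) and 17217364 (-1.07) downwards, and 17285777 (0.80) and 17467986 (0.76) upwards. None of these passed (limma adjusted p from 0.225 to 0.493), and 17217364 read 4.04, 2.82 and 2.60 on the 3 siG9a arrays, so most of its shift lay on 2 of them.

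Over all probe sets 0 passed in siG9a with limma (background 0%). An unadjusted limma p under 0.05 was reached by 589 of the unnamed (7.08%; 8.95% of all). By direction, 286 of the unnamed were higher (3.44%; 4.95% of all) and 303 lower (3.64%; 4% of all).

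**Figure D3:**
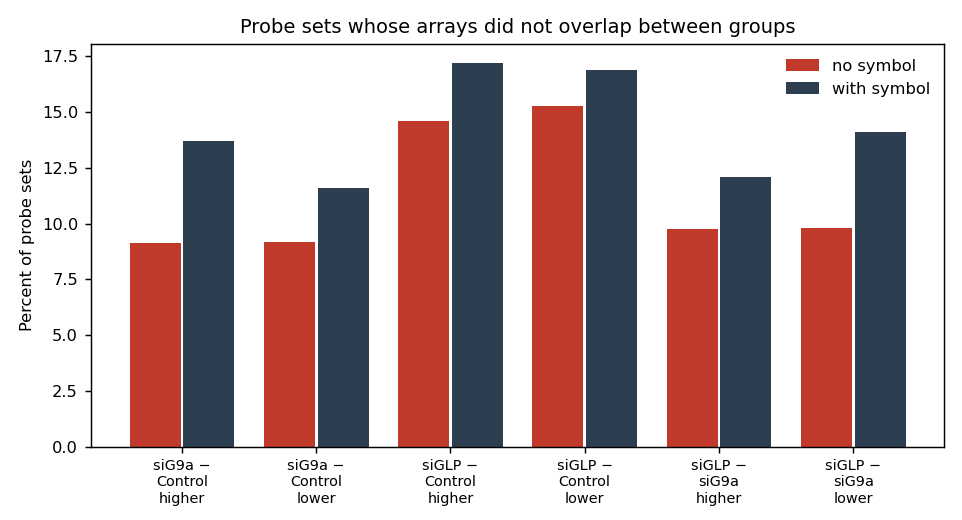
Percent of probe sets (y axis, from 0) in which every array of one group lay above or below every array of the other, by contrast and direction (x axis), for probe sets without and with a symbol. In each of the 6 pairs of bars the unnamed stand lower, as at 9.14% against 13.7% for higher signal in siG9a. The bars are not split by signal level.

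Knockdown of GLP gave the one unnamed probe set that passed. Probe set 17261006 rose by 1.60 log2 in siGLP, from a dim level in Control. Other large differences in siGLP did not pass. The differences of the unnamed had a median of 0, against 0.0002 over all probe sets, and the middle 50% lay between -0.10 and 0.099 log2. Control arrays are shared with the comparison above, so the values of the 2 knockdowns are not independent.

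Probe set 17261006 read 3.25 and 3.38 in Control, 3.87, 4.0 and 3.78 in siG9a, and 4.97 and 4.86 in siGLP. The 3 groups did not overlap in any pair, and siG9a lay between the others. Its difference from Control was 1.60 in siGLP (SE 0.10; limma adjusted p = 0.0223) and 0.57 in siG9a (SE 0.091; adjusted p = 0.181). Its Control values lay close to each array's lower quartile (3.32 to 3.36) and below the olfactory receptor level, so a signal above background in Control is not shown and no fold is given. Its siG9a values lay below that level too. The siGLP values lay above it. The nearest symbols were Ehbp1, a protein of endosome transport, and B3gnt2, a sugar transferase, which differed by 0.02 and -0.03 in siGLP. The call needed all 7 arrays. Leaving out the first or second Control array gave a limma adjusted p of 0.268 or 0.434. Leaving out siG9a array 1, 2 or 3 gave 0.134, 0.0729 or 0.144, and leaving out siGLP array 1 or 2 gave 0.356 or 0.206. The difference itself stayed between 1.54 and 1.66 without either siGLP array, and between 1.53 and 1.66 without either Control array.

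Over all 33649 probe sets 3 passed in siGLP (0.00892%), 1 of them unnamed. Higher signal on both siGLP arrays than on both Control arrays was found in 1216 of the unnamed (14.6%; 16.5% of all), and lower signal in 1273 (15.3%; 16.5% of all). Shifts of 1 log2 or more among these numbered 11 higher (0.132%; 0.119% of all) and 3 lower (0.0361%; 0.0297% of all). Among those whose higher group mean exceeded the median of all, 408 of 2597 lay higher (15.7%; 19% of all such probe sets) and 492 lower (18.9%; 19.8%). These shares lay near or below the background. At or below that median, 14.1% lay higher and 13.7% lower, against 13.9% and 12.6% of probe sets with a symbol. Groups of 2 arrays each separate more readily than 3 against 2, so these shares cannot be compared with those of siG9a. An unadjusted limma p under 0.05 was reached by 303 higher (3.64%; 4.01% of all) and 281 lower (3.38%; 3.62% of all).

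The largest upward differences in siGLP were not the most certain. Probe set 17418057, between Rims3 and the cartilage collagen gene Col9a2, read 5.08 and 3.97 in Control, 5.32, 4.91 and 5.14 in siG9a, and 7.41 and 6.17 in siGLP. It stood 2.27 higher in siGLP (SE 0.47; limma adjusted p = 0.302), and both its Control and its siGLP arrays were more than 1 log2 apart. Probe set 17518340, beside the replication fork gene Tipin, read 2.31 and 3.21 in Control, 2.90 to 4.60 in siG9a, and 5.52 and 4.39 in siGLP, a difference of 2.19 (SE 0.65; limma adjusted p = 0.479). These 2 probe sets had the widest spread among the 5 largest.

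Probe set 17300127 lay in the run of 26 between Trav14d-3-dv8 and Trav7-4. It read 4.43 and 4.69 in Control, 4.92, 5.19 and 5.52 in siG9a, and 6.40 and 6.11 in siGLP. As at 17261006, no groups overlapped and siG9a lay in the middle. The difference in siGLP was 1.69 (SE 0.21; limma adjusted p = 0.174). The neighbouring receptor segments Trav14d-3-dv8 and Trav7-4 read 2.75 and 2.11 on average and differed by 0.08 and -0.10. Probe set 17247638, before the chaperonin subunit gene Cct4, read 5.94 and 5.95 in Control, 7.04, 6.59 and 6.63 in siG9a, and 7.56 and 7.02 in siGLP. Its difference in siGLP was 1.34 (SE 0.21; 2.54-fold; limma adjusted p = 0.243), and Cct4 differed by -0.03.

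The largest downward difference in siGLP was at probe set 17430004, between Thrap3, a splicing and transcription cofactor, and the microtubule-associated gene Map7d1. It read 5.48 and 5.66 in Control, 4.87, 4.48 and 4.63 in siG9a, and 4.24 and 3.95 in siGLP. All 5 knockdown arrays lay below both controls. The difference was -1.48 (SE 0.16; limma adjusted p = 0.148) and did not pass. Map7d1, whose probe set carries the next identifier, differed by -0.49 in siGLP and 0.16 in siG9a (limma adjusted p = 0.185 and 0.522). Its siGLP minus siG9a difference, -0.65, passed (adjusted p = 0.0482).

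Differences at 17275704 (-0.90), 17274394 (-0.78), 17339852 (-0.74) and 17352981 (-0.74) followed. Probe set 17275704, between Gemin2, which assembles splicing particles, and Pnn, read 5.79 and 5.73 in Control, 4.92 to 5.14 in siG9a, and 5.07 and 4.66 in siGLP (limma adjusted p = 0.243). It too lay below Control on all 5 knockdown arrays. For 17352981 the values were 7.96 and 7.73 in Control, 7.27 to 7.46 in siG9a, and 7.09 and 7.14 in siGLP (limma adjusted p = 0.206), again without overlap between Control and either knockdown. Dim probe sets with the largest separated shifts were 17312070 (0.96) and 17309111 (0.95) upwards, and 17526512 (-1.46) and 17217364 (-1.20) downwards, with limma adjusted p from 0.345 to 0.596. The Control arrays of 17526512 read 2.95 and 4.87.

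**Figure D4:**
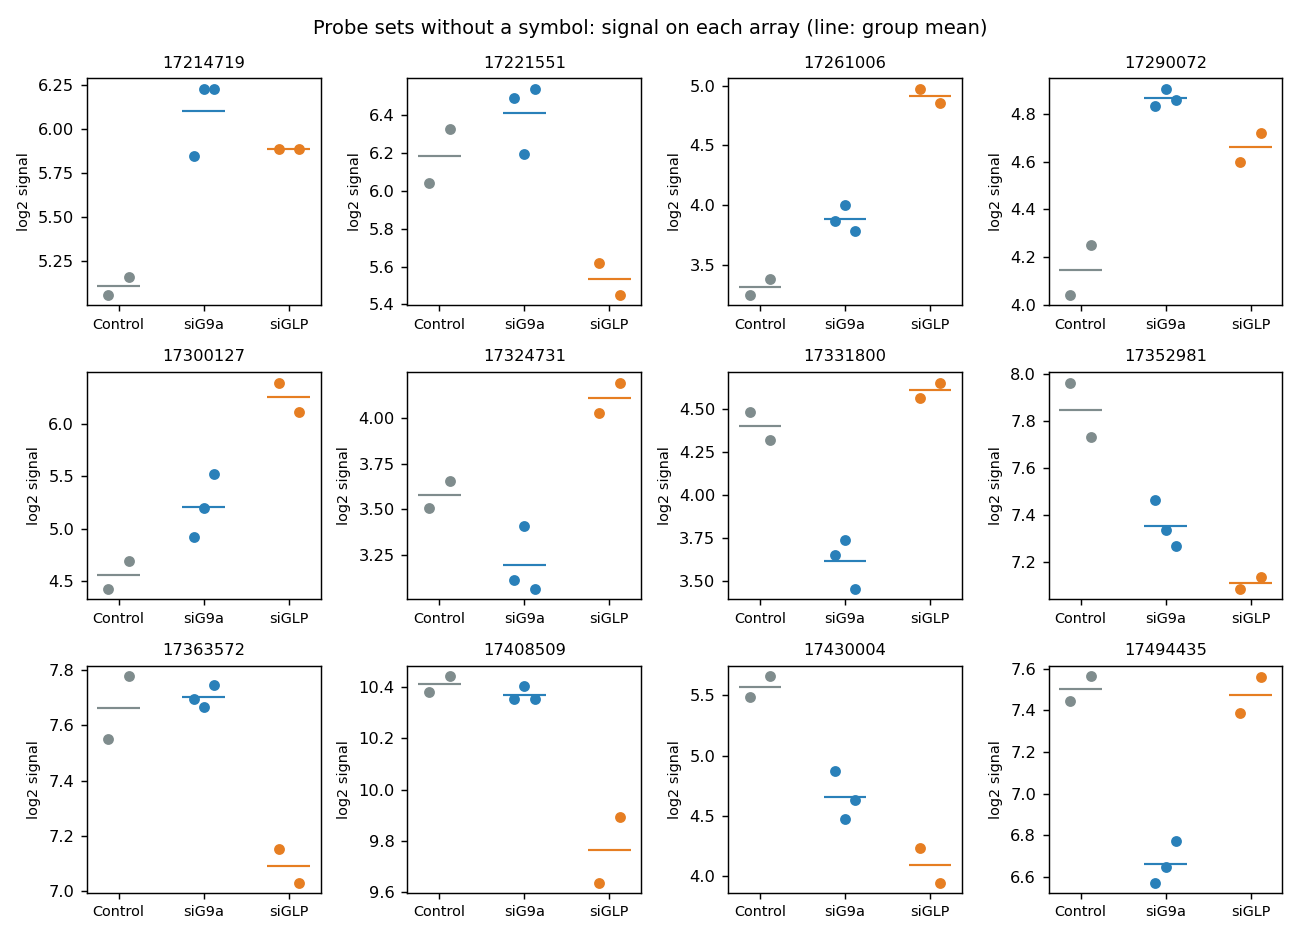
Log2 signal (y axes, each with its own range) of 12 probe sets without a symbol on each of the 7 arrays by group; points are arrays and lines are group means. Shown are the 12 named probe sets with the smallest p in any contrast. At 17261006, 17300127 and 17430004 the siG9a arrays lie between Control and siGLP, while at 17494435 only siG9a stands apart.

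Both knockdowns together lay on one side of Control in a small share. All 5 knockdown arrays exceeded both Control arrays in 386 unnamed probe sets (4.64%; 5.9% of all), and lay below both in 367 (4.41%; 5.18% of all). Both shares were again below the background, and they were not split by signal level. Ranked by the larger of the siG9a and siGLP differences, and with the highest group mean above the median of all, the first 3 were 17300127, 17261006 and 17430004, described above. For 17261006 only the siGLP mean exceeded that median. In siG9a alone, 17214719 (0.99) and 17247638 (0.81) differed by more than 17261006 (0.57).

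Direct comparison of siGLP with siG9a used no Control array for its differences. It asks where the 2 knockdowns part. Probe set 17261006 was the unnamed one that passed, with a difference of 1.03 log2 (SE 0.091; limma adjusted p = 0.04), among 16 of all probe sets (0.0475%). Separate groups were found in 813 higher (9.78%; 11.5% of all) and 816 lower (9.81%; 13% of all), and the middle 50% of differences lay between -0.096 and 0.11. Separated shifts of 1 log2 or more numbered 4 higher (0.0481%; 0.0594% of all) and 1 lower (0.012%; 0.0238% of all). Above the median level 366 of 2583 were higher (14.2%; 15.2% of all such) and 291 lower (11.3%; 17.4%). At or below it the shares were 7.8% and 9.16%, against 7.64% and 8.04% of probe sets with a symbol. Without 1 array the call at 17261006 was lost in each case. Leaving out either Control array gave a limma adjusted p of 0.185, leaving out siG9a array 1, 2 or 3 gave 0.204, 0.124 or 0.162, and leaving out siGLP array 1 or 2 gave 0.285 or 0.2. The difference lay between 0.97 and 1.09.

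Several unnamed probe sets parted the knockdowns just short of the threshold. Probe set 17331800, after the chaperonin gene Cct8 and before the glutamate receptor gene Grik1, read 4.48 and 4.32 in Control, 3.65, 3.74 and 3.45 in siG9a, and 4.56 and 4.65 in siGLP. The siG9a arrays alone were low. The siGLP minus siG9a difference was 1.00 (SE 0.10; limma adjusted p = 0.0557). It passed after quantile normalization (limma adjusted p = 0.0484), cyclic loess (0.0477), the trended, robust model (0.0227) and the 30th percentile filter (0.0341). These were 4 of 14 alternative settings. It passed in no other, and not when any 1 array was left out. At 17494435, described above, the siGLP minus siG9a difference was 0.81 (limma adjusted p = 0.0637). Probe sets 17418057 (1.67), 17300127 (1.04) and 17306330 (0.97) made up the rest of the 5 largest, with limma adjusted p of 0.253, 0.136 and 0.129.

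Probe sets lower in siGLP than in siG9a included 2 bright probe sets with large identifier steps. Probe set 17408509, at a step of 27 and between Cd2 and Mab21l3, read 10.4 and 10.4 in Control, 10.4 on each of the 3 siG9a arrays, and 9.64 and 9.89 in siGLP. Only the siGLP arrays were low. It differed by -0.61 from siG9a (SE 0.089; 1.52-fold lower; limma adjusted p = 0.0977) and by -0.65 from Control (adjusted p = 0.224). Probe set 17363572, at a step of 26 and between Fam189a2 and the lipid kinase gene Pip5k1b, read 7.55 and 7.78 in Control, 7.70, 7.67 and 7.75 in siG9a, and 7.15 and 7.03 in siGLP, a difference of -0.61 (limma adjusted p = 0.0977). Both passed with dim probe sets left out (limma adjusted p = 0.0365 and 0.0361) and with the trended, robust model (0.0268 and 0.0346). These were 2 of 15 alternative settings for each, and neither passed in another. The largest such difference was at 17221551 (-0.87, limma adjusted p = 0.112). It read 6.49, 6.20 and 6.54 in siG9a and 5.62 and 5.45 in siGLP. It passed only without dim probe sets (limma adjusted p = 0.0432), 1 of 15 alternative settings. Probe sets 17526109 (-0.67) and 17526347 (-0.61) followed.

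Dim probe sets with the largest separated shifts between the knockdowns were 17367947 (1.15) and 17324731 (0.91) upwards, and 17344988 (-1.04) and 17239742 (-0.99) downwards. None passed (limma adjusted p from 0.0854 to 0.34), although 17324731 did with the trended, robust model (adjusted p = 0.0385), 1 of 13 alternative settings. In unadjusted terms 365 unnamed probe sets were higher with p under 0.05 (4.39%; 5.14% of all) and 338 lower (4.07%; 5.56% of all).

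**Figure D5:**
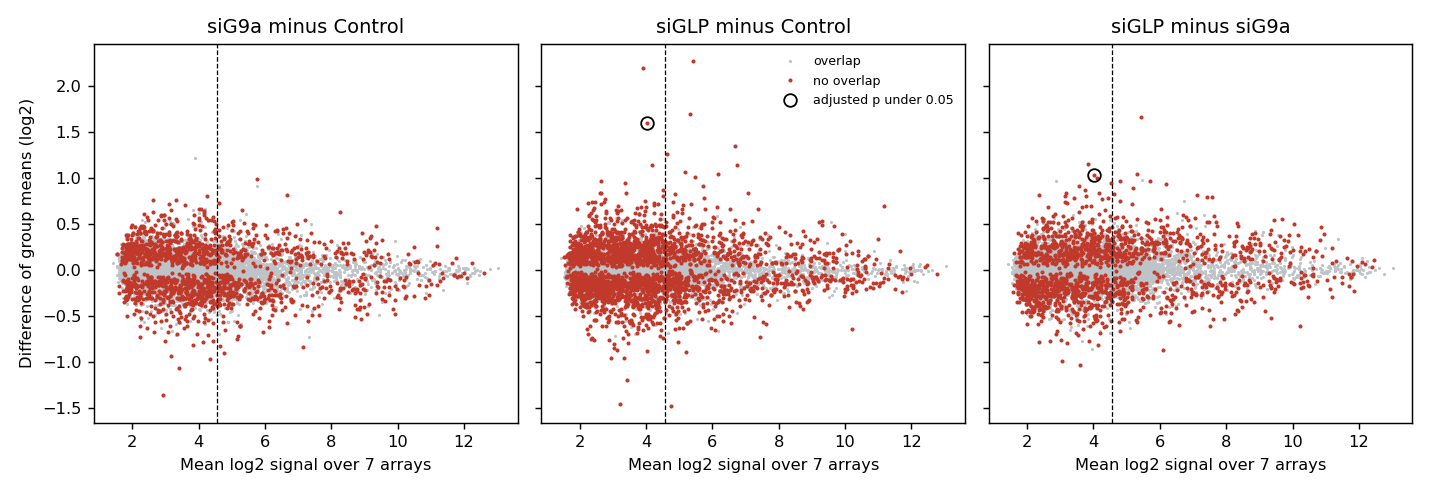
Difference of group means in log2 (y axis) against mean log2 signal over 7 arrays (x axis) for the 8314 probe sets without a symbol in the 3 contrasts; red points are those whose arrays did not overlap, the circle marks 17261006, which passed in both siGLP contrasts, and the dashed line is the olfactory receptor level. Separated probe sets lie at every level, and the widest shifts lie mostly below a signal of 8.

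The share of unnamed probe sets that separated was highest at identifier steps of 11 or more, where the median size of their differences was smallest. That size was 0.074 log2 in siG9a, 0.080 in siGLP and 0.085 for siGLP minus siG9a, against 0.105, 0.115 and 0.116 at a step of 2. In siG9a 17.8% separated from Control in either direction at a step of 2 and 28.4% at 11 or more, and in siGLP the shares were 30.3% and 40.3%. For siGLP minus siG9a they were 19.7% and 30.3%. Over all probe sets, whatever the step, the shares were 23.6%, 33% and 24.5%. In probe sets with a symbol they were 20.8% and 29.2% in siG9a, and 32.4% and 35.7% in siGLP, at the same steps. Groups of 2 arrays each, as for siGLP and Control, separate more readily than 3 against 2. The shares are therefore not compared between contrasts. Differences of the unnamed were also set beside those of the next probe set with a symbol. Pearson's r over 8313 such pairs was 0.006 in siG9a, -0.011 in siGLP and 0.012 for siGLP minus siG9a. Between consecutive probe sets with a symbol, whether or not unnamed ones lay between (25334 pairs), it was 0.051, 0.055 and 0.045. For the 2474 pairs whose unnamed member lay above the median level it was 0.000, 0.025 and 0.045. All of these are close to 0. These pairs share the same arrays, and are given as a description only.

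Of the 298 flanked by antigen receptor symbols, 90 separated from Control in siGLP (30.2%; 33% of all) and 48 in siG9a (16.1%; 23.6% of all). These shares were not tested against the rest, and the differing numbers of arrays keep siGLP and siG9a from being compared. In siGLP 40 were higher (13.4%) and 50 lower (16.8%), where 16.5% of all probe sets were in each direction, and 17300127 was the only one of them with a separated shift of 1 log2 or more. In siG9a 30 were higher (10.1%; 12.6% of all) and 18 lower (6.04%; 11% of all). The 298 were mostly dim, with a median of 3.12, and shares of all probe sets include bright ones. Where the higher group mean was at or below the median of all, 9.11% of the unnamed separated upwards in siG9a and 7.38% downwards. For siGLP at such levels the shares of the unnamed were 14.1% and 13.7%.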

How the data were processed

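Expression was read on 7 single-colour Affymetrix arrays, 1 per sample. The authors deposited log2 values, 1 per probe set and array. RMA and Partek are named, with no version, in the submitters' processing notes. The log2 scale was taken from the range of the values. RMA corrects background and normalizes between arrays, which compresses dim values and makes differences relative to the bulk of probe sets. Scanner files, scan dates and batches were not used here. Labelled cDNA was made from 100 ng of RNA.

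All 33649 probe sets entered 1 fit with limma 3.58.1 in R 4.3.3 (lmFit, eBayes, 1 mean per group, 4 residual degrees of freedom, 6.71 with moderation), with two-sided p-values, Benjamini-Hochberg adjustment over all of them and a threshold of 0.05. No filter was applied. Groups separated when every array of one lay strictly beyond every array of the other. Folds are antilogs of log2 differences. Named probe sets are those past the threshold, the 5 largest separated rises and falls per contrast above the median level, the 2 largest of each below it, the 5 brightest and the 3 largest shifts common to both knockdowns. Scripts were tested on simulated data. Members, lists and rules were chosen with earlier results of these data known, and the olfactory receptor level and neighbour groupings after seeing the values. Symbols came from the platform annotation, updated through RefSeq gene numbers (23328 of 23521 matched).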

Additional observations from a re-analysis of the deposited data

Results flagged for a closer look

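Among the named probe sets without a symbol, 1 differed between the knockdowns by the test of the difference itself. Probe set 17261006 was 1.03 log2 higher in siGLP than in siG9a (limma adjusted p = 0.04). A further 3 had every siG9a array on one side of Control and every siGLP array on the other. These 3 were named for large separated siGLP minus siG9a shifts, a choice that favours such a pattern. How many of all probe sets show it is not given here. At 17331800 the differences from Control were -0.79 in siG9a and 0.21 in siGLP, at 17324731 they were -0.38 and 0.53, and at 17344988 they were 0.71 and -0.33. The siGLP minus siG9a difference did not pass for these 3 (limma adjusted p = 0.0557, 0.0854 and 0.278). With a trended, robust variance model it passed for 17331800 (0.0227) and 17324731 (0.0385). Of the alternative settings, it passed in 4 of 14 for 17331800 and in 1 of 13 for 17324731. No group had the 4 arrays needed to look for a single outlying array.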

How the results depend on the processing

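The counts of unnamed probe sets past the threshold were small and moved with the model. Counts over all probe sets are not given for the alternative settings, so none of these changes is read as particular to the unnamed. In siG9a the count was 0, and it was 4 with a trended, robust variance model and 3 without probe sets below the median level. In siGLP the count of 1 was 0 without variance moderation, with only the 2 groups compared in the fit, or without probe sets below the median level (which leaves out 17261006 itself). For siGLP minus siG9a the count of 1 was 2 after quantile or cyclic loess normalization, 16 with the trended, robust model, 4 without probe sets below the 30th percentile, 13 without those below the median and 0 with only the 2 groups compared, and without moderation the 1 that passed was another, 17495985. With the replicate number as a block the count was 0 in each contrast (replicate block; 17261006 had a limma adjusted p of 0.215 in siGLP and 0.278 against siG9a). The labels do not say that numbers pair the samples, so the main fit did not take them as pairs. Deviations of same-numbered arrays correlated at 0.118 and 0.005 between Control and siG9a and at 0.072 between Control and siGLP. Between siG9a and siGLP they correlated at 0.142 and 0.134. For differently numbered arrays the values lay between -0.142 and 0.124. In a group of 2 arrays the deviations mirror each other, so these values cannot decide whether the numbers pair samples. Without any 1 array the count was 0 in all 3 contrasts.

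Counts of separated unnamed probe sets fell with filters and rose when arrays were left out, as fewer probe sets or fewer arrays imply. They are given without the share of all probe sets under the same setting, and so describe the settings only. Without probe sets below the 30th percentile they were 366 higher and 506 lower in siG9a, 643 and 720 in siGLP, and 516 and 424 for siGLP minus siG9a. Without those below the median they were 223 and 322, 377 and 469, and 337 and 276. With a gap of at least 0.2 log2 they were 80 and 93, 194 and 162, and 120 and 96. After quantile normalization they were 790 and 979, 1266 and 1628, and 996 and 907, and after cyclic loess 794 and 973, 1310 and 1577, and 1039 and 869. Without 1 array they ranged from 760 to 1961 higher and 764 to 1984 lower in siG9a, 1216 to 2591 and 1273 to 2719 in siGLP, and 813 to 2095 and 816 to 2055 for siGLP minus siG9a. The median level became 4.78 and 5.69 under the 2 filters and the share above the median of all 28.2% and 29.2%. Without 1 array they lay between 3.68 and 3.68, and between 29.7% and 29.9%. The 2 probe sets with identifiers below the first symbol had a median of 2.00, a share of 0% and 0 separated or past the threshold, apart from 1 higher in siGLP. No named probe set turned its direction under any alternative. The number above the olfactory receptor level was 1304 at the 99th percentile.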
